A study of Mus musculus with 16 samples.

Results

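The HCN and K2P channels carry resting and pacemaker currents, and 9 of their genes were followed here in the sensory neurons of mouse dorsal root ganglia: Hcn2, Hcn3, Hcn4, Kcnk1, Kcnk2, Kcnk3, Kcnk9, Kcnk10 and Kcnk18. They were taken by symbol from 49671 counted genes, and all 9 were found. Earlier results of these data were known when they were chosen. The study sorted or picked single neurons into 96-well plates and counted transcripts by CEL-Seq2, a method that primes at the poly(A) tail and counts molecules by unique molecular identifiers (UMIs), to ask how proprioceptors of different muscles differ. There were 960 wells in 10 libraries at embryonic day 15.5 (e15.5) and 576 wells in 6 libraries at postnatal day 1 (p1). The e15.5 neurons came from the PvtdTom line, in which a bacterial artificial chromosome drives tdTomato from the parvalbumin promoter, and the p1 neurons from Trpv1Cre; PvFlp; Ai65 or PvCre; Ai14 mice, whose tdTomato depends on Cre and Flp or on Cre alone. The parvalbumin promoter is also active in some cutaneous mechanoreceptors. Which p1 library came from which line, and which libraries were thoracic or lumbar, was not in the labels, and the p1 wells are described as sorted in the labels and as picked by hand in the study's methods. Age, line and any difference in isolation therefore cannot be told apart. The study found that Trpv1Cre with PvFlp labelled a subset of proprioceptors selective for back muscles. The mix of muscle types can therefore differ with line and age as well. Nothing in the labels ties a library to its own animals, and p-values therefore measure the spread between libraries only.

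HCN channels open on hyperpolarisation, pass a mixed sodium and potassium inward current and are gated by cyclic nucleotides; in sensory neurons they help to set the resting potential and the readiness to fire repeatedly. K2P channels are potassium leak channels that stay open near rest and hold the membrane negative. Among them TWIK (Kcnk1) passes little current on its own, the TREK channels (Kcnk2, Kcnk10) respond to stretch, lipids and heat, the TASK channels (Kcnk3, Kcnk9) close in acid, and TRESK (Kcnk18) is activated by calcineurin and is known from nociceptors.

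Wells with at least 10000 UMIs and at least 100 CPM of the sensory neuron genes Avil and Isl1 together were selected, CPM being UMIs of a gene per 1000000 UMIs. There were 434 such wells at e15.5, which were 49.8% of the 871 deep wells, and 365 at p1, which were 98.9% of 369. Each library gave 18 to 78 selected wells at e15.5 and 12 to 83 at p1, and their sums held 1666579 to 9022334 and 238549 to 8772465 UMIs. The smallest sum was p1 library 3, with 12 wells. Summed Avil, Isl1, Tubb3, Prph and Snap25 were at 4130 to 5868 CPM at e15.5 and 3328 to 4682 CPM at p1. Avil and Isl1 had served to select the wells, and the other genes of this sum had not. In all e15.5 selected wells together Tubb3 was at 1952 CPM, Prph at 1824 and Snap25 at 322. In the deep e15.5 wells that were not selected they were at 186, 45.4 and 43.4 CPM. Pvalb and Runx3, markers of proprioceptors, reached 200 CPM together in 340 of 434 wells at e15.5 and in 355 of 365 at p1. The nociceptor list summed to 64.8 to 708 CPM at e15.5 and 16.9 to 80.6 at p1, and glial genes to 161 to 842 and 137 to 595. Of the UMIs in selected wells, 5.05% were mitochondrial at e15.5 and 8.87% at p1. The age comparison was refitted in proprioceptor-marker wells alone, without wells with glial transcripts, and with a mitochondrial filter. Beyond these refits, the part of these differences in the results across age was not tested.

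Promoter sequence is shown for Hcn2, Hcn4 and Kcnk1, so that their base composition can be set side by side. Kcnk1 was the member with the largest change between ages. The set of RefSeq starts used here (GRCm38.p6) held 6 of the 9 genes, and of the pacemaker members it held Hcn2 and Hcn4. Whether RefSeq has starts for the others was not looked at. The 250 bases before each start are written 5′ to 3′ on the gene's strand, with capitals for matches on either strand to the GC box GGGCGG or the ETS core CCGGAA.
Hcn2, chr10:79716384-79716633, plus strand: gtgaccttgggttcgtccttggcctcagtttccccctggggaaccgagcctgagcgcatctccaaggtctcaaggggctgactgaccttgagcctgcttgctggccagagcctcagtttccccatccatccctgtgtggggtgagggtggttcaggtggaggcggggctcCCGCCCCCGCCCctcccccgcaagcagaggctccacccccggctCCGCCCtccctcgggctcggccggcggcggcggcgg
Hcn4, chr9:58822699-58822948, plus strand: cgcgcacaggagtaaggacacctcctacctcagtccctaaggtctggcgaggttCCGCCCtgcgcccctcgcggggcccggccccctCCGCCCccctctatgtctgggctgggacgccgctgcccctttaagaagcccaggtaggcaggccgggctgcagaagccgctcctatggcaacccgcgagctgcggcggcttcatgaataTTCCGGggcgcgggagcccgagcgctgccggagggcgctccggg
Kcnk1, chr8:125994852-125995101, plus strand: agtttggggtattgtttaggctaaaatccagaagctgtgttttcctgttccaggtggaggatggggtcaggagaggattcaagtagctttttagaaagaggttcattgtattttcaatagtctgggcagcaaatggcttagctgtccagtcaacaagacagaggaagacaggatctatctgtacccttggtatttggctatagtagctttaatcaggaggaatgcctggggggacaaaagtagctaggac
The Hcn2 stretch held 16 CpG, 70.4% GC and 3 GC boxes, and that of Hcn4 held 25 CpG, 71.2% GC, 2 GC boxes and 1 ETS core. The Kcnk1 stretch held 0 CpG and 44.4% GC. Of 32851 RefSeq promoters of this length, 32.7% held a GC box and 12.0% an ETS core, and the median was 6 CpG and 52.4% GC. None of the 3 stretches held the other motifs searched on both strands. These were the cyclic AMP response core TGACGTCA, the RUNX motif TGTGGT, the TATA box TATAAA and the E-box CAGCTG, and no motif contains another. They were held by 1.55%, 14.0%, 12.4% and 13.0% of all promoters. These matches describe letters in a window, and no binding was measured. For Hcn4 and Kcnk1 the RefSeq start lies outside the GENCODE gene used for their counts.

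At e15.5 the selected wells held transcripts of all members but Kcnk9, with Kcnk3 and the HCN genes above Kcnk10, Kcnk1 and Kcnk2 in mean level. Kcnk3, the acid-sensitive TASK channel, had the highest member level, 51.9 ± 11.7 CPM (SD, n = 10 libraries). It was followed by Hcn3 at 41.7 ± 9.91, Hcn4 at 36.8 ± 5.79 and Hcn2 at 22.2 ± 6.13 CPM. Kcnk10 stood at 14.5 ± 2.67, Kcnk1 at 9.66 ± 2.82 and Kcnk2 at 7.18 ± 2.83 CPM. Neighbours in this order had overlapping ranges, although Kcnk3 was above Hcn3 in 9 of 10 libraries and Hcn4 above Hcn2 in 10 of 10. The step from Kcnk2 to Kcnk18 was the one where neighbouring ranges did not overlap. CEL-Seq2 counts 3′ ends, so that these orders are of counted molecules and were not corrected for how well each 3′ end is captured.

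The order at p1 differed in the place of Kcnk1, which stood first among the members at 67.9 ± 19.3 CPM (SD, n = 6 libraries). Kcnk3 was at 62.7 ± 17.9, Hcn3 at 58.5 ± 6.12, Hcn4 at 52.8 ± 4.89 and Hcn2 at 48.7 ± 19.5 CPM, and these ranges overlapped from one to the next. Kcnk1 was above Kcnk3 in 5 of 6 libraries, by 5.19 ± 20.1 CPM, which is less than the spread between libraries. With equal weight for each well of a library Kcnk1 was not first, at a mean of 52.8 CPM against 55.2 for Hcn3 and 55.1 for Kcnk3. Kcnk10 and Kcnk2 were lowest of the 7 well detected genes, at 16.6 ± 7.39 and 11.7 ± 4.85 CPM.

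**Figure D1:**
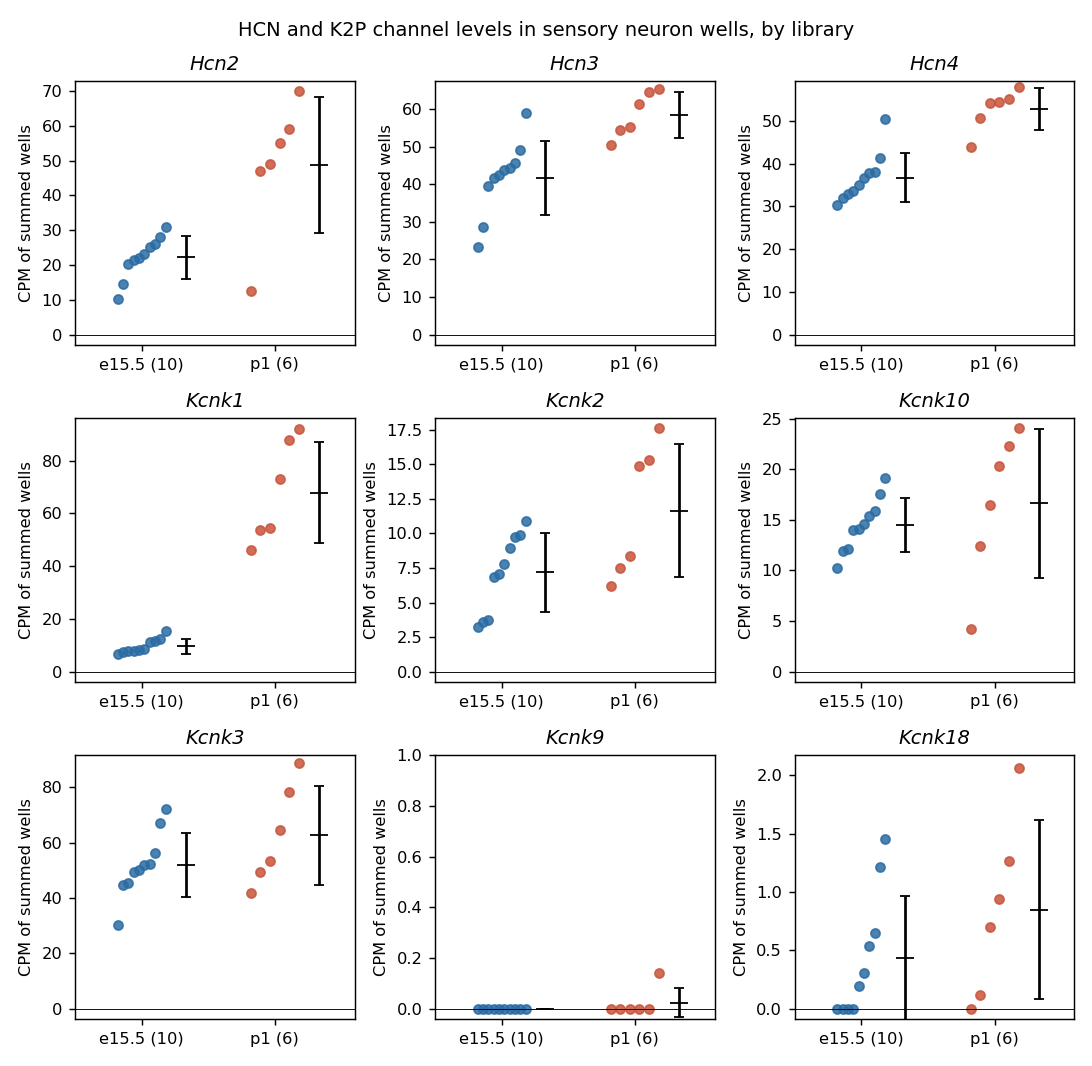
Level of each member in the summed sensory neuron wells of each library, in CPM on a linear axis with its own scale for each gene; points are libraries (10 at e15.5, 6 at p1) and the bar beside them is the mean with SD. The Kcnk1 points lie between 6.64 and 15.5 CPM at e15.5 and between 46.1 and 91.9 CPM at p1 without overlap, while the points of the other members overlap between ages.

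Between e15.5 and p1 all 7 members that could be tested were higher at p1, from 1.47-fold for Kcnk3 to 8.38-fold for Kcnk1. The test was edgeR's quasi-likelihood F test on library sums with Benjamini-Hochberg adjustment over 14381 genes, and it called 59.7% of all genes, 28.6% higher and 31.1% lower, with a median log2 fold change of -0.05. Passing the test was therefore common, and the 7 of 7 members called higher, with a median of 0.76, are to be read against that background. Kcnk9 and Kcnk18 were removed by the filter on low counts.

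Hcn2, a pacemaker channel that responds strongly to cyclic AMP, ranged from 10.3 to 31.0 CPM at e15.5 (median 22.5) and from 12.6 to 69.9 CPM at p1 (median 51.9). The low p1 value was that of library 3, which rested on 3 UMIs, and the other 5 p1 libraries were at 47.1 to 69.9 CPM, above every e15.5 library. The log2 fold change was 1.47 (SE 0.205, edgeR quasi-likelihood adjusted p = 6.8e-06), or 2.77-fold. Hcn3, a slowly activating member that is largely insensitive to cyclic AMP, went from 23.3 to 58.8 CPM (median 43.1) at e15.5 to 50.3 to 65.3 CPM (median 58.2) at p1. Most e15.5 libraries lay under the lowest p1 library, but the ranges overlapped, and the difference was 0.74 (SE 0.152, edgeR adjusted p = 0.00039). Hcn4, the slow pacemaker channel best known from the sinoatrial node, had 30.2 to 50.4 CPM (median 35.7) at e15.5 and 43.9 to 58.0 CPM (median 54.3) at p1. Its log2 fold change was 0.76 (SE 0.104, edgeR adjusted p = 6.0e-06). The Hcn4 groups overlapped only between 43.9 and 50.4 CPM.

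Kcnk1 gave the largest change of the members. Its level lay between 6.64 and 15.5 CPM (median 8.39) in the 10 e15.5 libraries and between 46.1 and 91.9 CPM (median 63.8) in the 6 p1 libraries. The groups did not overlap, which held for no other member; of all tested genes 6.26% had every p1 library above every e15.5 library and 20.4% had every p1 library lower. The log2 fold change was 3.07 (SE 0.175, 95% interval 2.72 to 3.41, edgeR adjusted p = 9.6e-11). It stayed between 2.84 and 3.21 in the 16 other settings tried and between 2.98 and 3.14 when any 1 library was left out.

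The TREK genes moved less. Kcnk2, a channel opened by stretch and polyunsaturated fatty acids, went from 3.23 to 10.9 CPM (median 7.43) at e15.5 to 6.19 to 17.6 CPM (median 11.6) at p1, with overlapping groups and a log2 fold change of 0.97 (SE 0.295, edgeR adjusted p = 0.0082). Kcnk10, its close relative, had 10.2 to 19.1 CPM (median 14.3) at e15.5 and 4.19 to 24.1 CPM (median 18.4) at p1, and the difference was 0.57 (SE 0.188, edgeR adjusted p = 0.014). The low p1 value of Kcnk10 was 1 UMI in library 3, and the other 5 p1 libraries were at 12.4 to 24.1 CPM, within or above the e15.5 range. A pseudogene, Pdcd5-ps, overlaps Kcnk2 on the same strand and was counted at 52.3 CPM in the selected e15.5 wells together and 67.6 CPM in those at p1, several times the level of Kcnk2, so that how reads were shared between them makes the Kcnk2 level uncertain.

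Of the TASK genes, Kcnk3 had 30.3 to 72.2 CPM (median 50.9) at e15.5 and 41.9 to 88.7 CPM (median 59.0) at p1. The groups overlapped over most of their range and the log2 fold change was 0.55 (SE 0.172, edgeR adjusted p = 0.010). In proprioceptor-marker wells alone Kcnk3 was at 60.6 ± 9.91 and 65.8 ± 15.7 CPM (SD, n = 10 and 6), a smaller log2 fold change of 0.37 (edgeR adjusted p = 0.027). Kcnk9 had 0 UMIs in 45676526 at e15.5, a limit of 0.0657 CPM when 3 counts are allowed, and 1 UMI in 27897809 at p1. TRESK, the gene Kcnk18, had 14 UMIs at e15.5 (0.435 ± 0.530 CPM, n = 10) and 23 UMIs at p1 (0.848 ± 0.766 CPM, n = 6). In proprioceptor-marker wells alone Kcnk18 had 3 UMIs at e15.5, with 8 of 10 libraries at 0, and 19 UMIs at p1, with 1 of 6 at 0. Kcnk9 and Kcnk18 were too low for the test.

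The calls for Kcnk3 and Kcnk10 rested on how libraries were scaled. Scaling by library size in place of TMM moved the median of all genes by -0.24 and changed the split of calls from 4111 higher and 4473 lower to 2895 higher and 6232 lower. With it Kcnk3 was at 0.32 (edgeR adjusted p = 0.097) and Kcnk10 at 0.32 (edgeR adjusted p = 0.12), while Kcnk1 (2.84), Hcn2 (1.24), Kcnk2 (0.74), Hcn4 (0.52) and Hcn3 (0.51) were still called. Leaving out p1 library 2 ended the call for Kcnk10, at 0.44 (edgeR adjusted p = 0.064). Thinning every well to 10000 UMIs ended that for Kcnk3, at 0.51 (edgeR adjusted p = 0.089), and dropping the filter on low counts ended both, at 0.43 for Kcnk3 and 0.46 for Kcnk10 (edgeR adjusted p = 0.059 and 0.078).

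**Figure D2:**
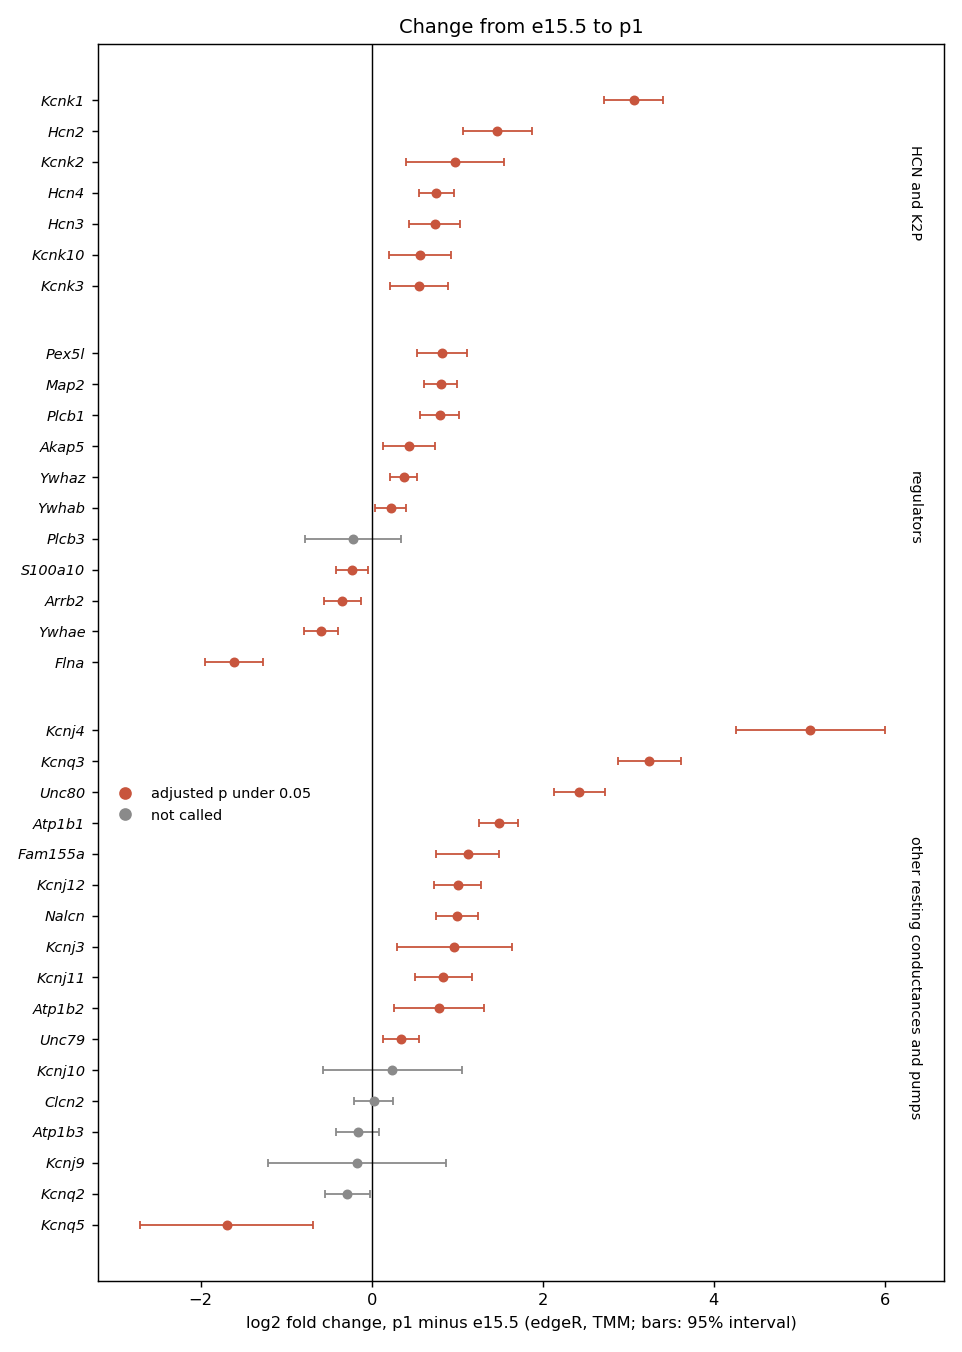
Log2 fold change from e15.5 to p1 with its 95% interval for the 7 tested members and the tested genes of the other lists that are reported here, with genes called at an adjusted p under 0.05 in red and others in grey; the x axis is log2. Kcnk1 at 3.07 stands apart from the other members, which lie between 0.55 and 1.47, and Kcnj4 at 5.13 is the highest gene of the other resting conductances.

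The partners of these channels did not move in 1 direction. Of 15 genes for proteins that bind, traffic or regulate HCN and K2P channels 12 were tested, and 6 were higher at p1, 5 lower and 1 not called, with a median of 0.00. Pex5l, which encodes the HCN trafficking subunit TRIP8b, was higher by 0.83, Map2 by 0.81 and the phospholipase gene Plcb1 by 0.79. Flna, which encodes filamin A, fell by 1.61 and the 14-3-3 gene Ywhae fell by 0.59. With library sizes alone the split was 3 higher and 5 lower.

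Most of the other tested genes of the resting membrane rose. Of 25 genes for inward rectifiers, the sodium leak complex, M-current channels, Clcn2 and the sodium pump, 20 were tested, and 14 were higher at p1, 1 lower and 5 not called, with a median of 0.96 (11 higher and 3 lower with library sizes alone). The inward rectifier Kcnj4 rose by 5.13 (edgeR adjusted p = 2.0e-08) from 9 UMIs at e15.5 to 167 at p1. The M-current subunit Kcnq3 rose by 3.25 from 29.5 ± 9.57 to 233 ± 49.2 CPM, and Unc80, of the sodium leak channel complex, by 2.43 from 44.7 ± 5.86 to 202 ± 61.7 CPM. The M-current subunit Kcnq5, unlike Kcnq3, fell by 1.70 (edgeR adjusted p = 0.0083). Kcnk12 and Kcnk13, which encode THIK channels, had 63 and 14 UMIs at e15.5 and 97 and 104 at p1, and neither was tested. The Kcnk12 ranges did not overlap (0.600 to 1.82 and 1.94 to 5.07 CPM), but their near edges rested on 6 UMIs in e15.5 library 3 and 17 in p1 library 1. Of all tested genes 6.26% had every p1 library above every e15.5 library.

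Because e15.5 wells were deeper than p1 wells, with a median of 101156 against 55567 UMIs, the share of wells with a transcript was compared after thinning each selected well to 10000 UMIs. Kcnk1 was then seen in 7.14% of 434 e15.5 wells (exact 95% binomial interval 4.90 to 9.99) and in 39.2% of 365 p1 wells (34.1 to 44.4). The share for Hcn2 was 20.7% (17.0 to 24.9) and 36.2% (31.2 to 41.3), and for Hcn4 24.2% and 38.1% (33.1 to 43.3). Those of Hcn3 were 28.8% (24.6 to 33.3) and 37.5% (32.5 to 42.7), with intervals that overlapped. These intervals cover counting error only, since wells of 1 library are not independent samples.

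The shares of the remaining members were closer between ages. Kcnk3 was in 32.9% and 38.6% of wells, Kcnk10 in 11.1% and 15.1%, and Kcnk2 in 6.91% and 9.32%. Kcnk18 was in 1 of 434 and 2 of 365 thinned wells, and Kcnk9 was in 0 of 434 and 0 of 365, which allows shares of up to 0.691% and 0.822% of wells with a UMI at this depth and does not limit the share of cells that express the gene. Without thinning, the shares at e15.5 and p1 were 47.2% and 75.3% for Kcnk1, 69.1% and 75.6% for Hcn2, 79.7% and 82.5% for Hcn3, and 75.8% and 77.5% for Kcnk3. The gap between ages was narrower for these genes than at equal depth.

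As a background, the same thinned share was taken in 437 deep e15.5 wells that had under 100 CPM of Avil and Isl1. It was 1.83% for Hcn2 and for Kcnk10, 5.72% for Hcn4, 8.01% for Hcn3 and 9.84% for Kcnk3, all well under the share in sensory neuron wells. For Kcnk1 it was 10.1%, so the 7.14% of e15.5 sensory neuron wells was no higher than in wells without neuron markers. For Kcnk2 it was 16.5%, above the 6.91% of sensory neuron wells. These wells had a median of 26755 UMIs before thinning.

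**Figure D3:**
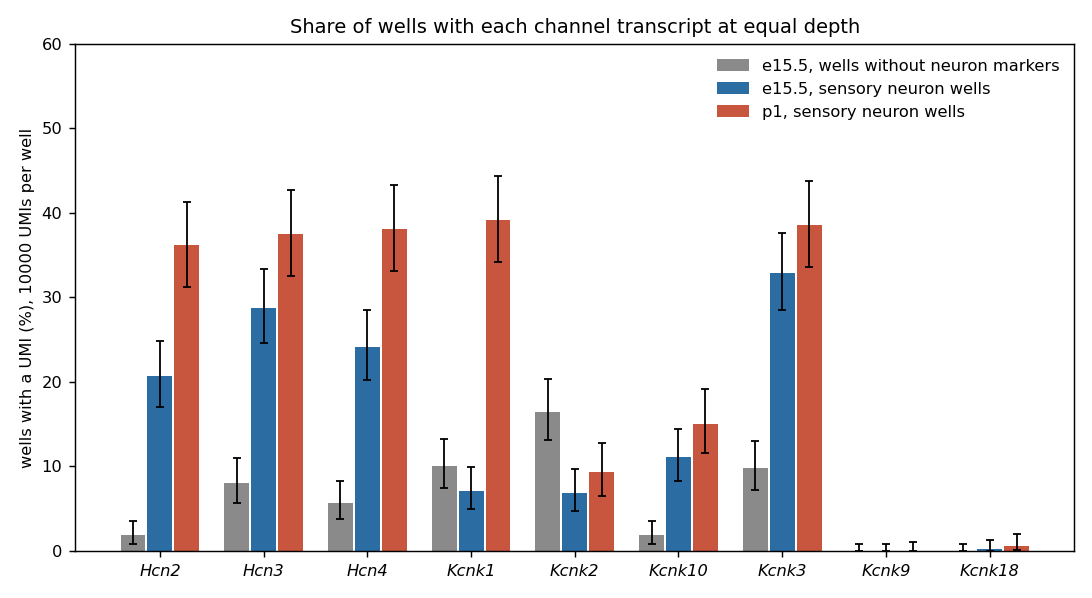
Percent of wells with at least 1 UMI of each member after each well was thinned to 10000 UMIs, in e15.5 wells without neuron markers (437), e15.5 sensory neuron wells (434) and p1 sensory neuron wells (365); bars start at 0 and error bars are exact 95% binomial intervals. Kcnk1 rises from 7.14% to 39.2% between ages, and Kcnk2 is at 16.5% in wells without neuron markers against 6.91% in e15.5 sensory neuron wells.

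The members were also counted together in each well. At equal depth a well held a median of 1 of the 9 genes at e15.5 and 2 at p1, and 25.1% of e15.5 wells held none against 6.85% of p1 wells. Wells with 3 or more members were 13.8% and 37.0%. At least 1 of Hcn2, Hcn3 and Hcn4 was seen in 54.8% and 75.3% of wells, and all 3 in 9 and 22 wells. These counts follow the shares of the single genes and no test was made of them.

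At e15.5 the sensory neuron wells were set against the other deep wells of the same library, which carried connective tissue transcripts at 15034 to 35302 CPM, to see where each channel was read. Of the 7 tested members 5 were higher in sensory neuron wells and Kcnk1 and Kcnk2 were lower (9 libraries, 356 against 433 wells, library as a block). The background was high, since edgeR's quasi-likelihood test called 70.6% of 15137 genes, 34.7% higher and 35.9% lower.

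All 3 pacemaker genes were higher in the neurons. Hcn2 was at 0 to 8.02 CPM (median 2.61) in the other wells and 10.3 to 31.0 (median 21.9) in sensory neuron wells, with no overlap and a log2 difference of 2.77 (SE 0.423, edgeR adjusted p = 8.6e-05). Hcn3 differed by 2.35 (39.8 ± 8.36 against 9.73 ± 7.79 CPM; edgeR adjusted p = 7.0e-06) and Hcn4 by 2.47 (36.6 ± 6.13 against 9.33 ± 9.61 CPM; edgeR adjusted p = 0.00011). All 3 were higher in 9 of 9 libraries.

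The K2P genes went both ways. Kcnk10 was 14.5 ± 2.83 CPM in sensory neuron wells and 3.05 ± 2.35 in the others, a log2 difference of 2.46 (SE 0.388, edgeR adjusted p = 0.00011) seen in 9 of 9 libraries. Kcnk3 was 49.7 ± 9.85 against 15.8 ± 12.9 CPM, a difference of 1.84 (SE 0.448, edgeR adjusted p = 0.0028) seen in 8 of 9. Kcnk2 went the other way, with 3.23 to 10.9 CPM in sensory neuron wells and 6.69 to 68.0 CPM in the others (median 25.7), and a log2 difference of -1.89 (SE 0.291, edgeR adjusted p = 9.1e-05) seen in 8 of 9 libraries. By these counts its TREK relative Kcnk10 was on the neuronal side and Kcnk2 on the other, among wells of the same plates. The pseudogene Pdcd5-ps, which overlaps Kcnk2, was not looked at in the other deep wells, so the side of Kcnk2 is uncertain.

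Kcnk1 at e15.5 was only slightly different between these wells. It was 6.64 to 15.5 CPM in sensory neuron wells and 4.32 to 21.9 CPM (median 14.4) in the others, and the log2 difference of -0.56 (SE 0.221, edgeR adjusted p = 0.039) was seen in 7 of 9 libraries. The call was lost in 4 of 9 other settings and when any of 7 of the 9 libraries was left out, with values of -0.75 to -0.41. Kcnk18 had 14 UMIs in all e15.5 sensory neuron wells and 0 in the 433 other deep wells. Kcnk5 and Kcnk6, K2P genes outside the 9, were lower in sensory neuron wells by -1.04 and -3.83 (edgeR adjusted p = 0.019 and 3.5e-05). The Kcnk5 call was lost with no filter on low counts (-0.906, edgeR adjusted p = 0.067).

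Among the regulators 13 were tested, with 8 higher in sensory neuron wells, 3 lower and 2 not called. The anchoring protein gene Akap5 was higher by 2.78, Pex5l by 2.06 and S100a10, whose product p11 binds TASK1, by 1.92, while Kcne4 and Flna were at -4.23 and -1.58. Of the other resting conductances and pumps 21 were tested, with 11 higher, 6 lower and 4 not called. Kcnj12 (4.13), Unc80 (3.22) and the pump subunit Atp1b1 (3.17) led the higher genes, and the vascular inward rectifier Kcnj8 (-2.97) and the glial pump subunit Atp1b2 (-1.89) were among the lower ones.

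Within e15.5 sensory neurons, wells with at least 200 CPM of Pvalb and Runx3 were then set against the rest, since the reporter marks neurons that are not proprioceptors as well. Kcnk1, Kcnk3 and Hcn2 were higher in the proprioceptor-marker wells and the other 4 tested members were not called (9 libraries, 320 against 90 wells, library as a block). Over all 13672 genes edgeR's quasi-likelihood test called 24.2%, 12.1% higher and 12.1% lower. The other sensory neuron wells carried connective tissue transcripts above 1000 CPM in 42 of 94 wells, against 29 of 340 proprioceptor-marker wells, and were shallower (median 43769 against 111228 UMIs). Their summed sensory neuron markers ran from 353 to 6101 CPM over libraries (median 4801) and their connective tissue markers from 29.7 to 25268 CPM (median 3559), so that in some libraries the neuron label is weak. The part of these transcripts in the results was not tested beyond leaving such wells out.

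Kcnk3 was at 46.0 to 77.9 CPM in proprioceptor-marker wells and at 0 to 53.2 CPM (median 10.7) in the other sensory neuron wells, higher in 9 of 9 libraries by 2.0 (SE 0.339, edgeR adjusted p = 0.0012). Kcnk1 was at 7.26 to 15.1 CPM and 0 to 8.19 CPM (median 2.58), a difference of 2.02 (SE 0.391, edgeR adjusted p = 0.0028) in 9 of 9 libraries. Hcn2 was at 14.4 to 30.3 CPM and 0 to 15.6 CPM (median 9.17), a difference of 1.47 (SE 0.258, edgeR adjusted p = 0.0014), also in 9 of 9. For each of the 3 genes the ranges overlapped narrowly between the classes although every library went the same way. Without the wells that held connective tissue transcripts, a comparison of 5 libraries, the differences were 2.17 for Kcnk1, 1.41 for Kcnk3 and 1.67 for Hcn2, and all were still called. The zeros of Kcnk3 and Hcn2 are from e15.5 library 6, whose 5 such wells summed to 133055 UMIs, and that of Kcnk1 from library 5. Kcnk1 rested on 22 UMIs in the other sensory neuron wells of all 9 libraries, against 61 for Hcn2 and 141 for Kcnk3.

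The slow pacemaker Hcn4 was alike in mean, with 35.3 ± 6.42 CPM in proprioceptor-marker wells and 36.4 ± 22.0 in the others, and the log2 difference of -0.05 had a 95% interval of -0.62 to 0.52. Hcn3 was 43.1 against 29.4 CPM, a difference of 0.50 (SE 0.229, edgeR adjusted p = 0.13) in 7 of 9 libraries. It passed when the marker threshold was raised to 400 CPM (0.42, edgeR adjusted p = 0.016). The TREK genes were not called either, with Kcnk10 at 0.46 (interval -0.28 to 1.21) and Kcnk2 at -0.47 (interval -1.24 to 0.30). Kcnk18, a gene of nociceptors, had 9 UMIs in the 90 other sensory neuron wells and 3 in the far deeper proprioceptor-marker wells.

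Of the channels around them, Kcnk6 was lower by -3.24 (edgeR adjusted p = 0.036). It was lower in 4 of 9 libraries and higher in 2, on 8 UMIs in proprioceptor-marker wells against 26 in the others. The Kcnk6 call was lost without wells with glial transcripts (edgeR adjusted p = 0.090) and when e15.5 library 1, 4, 5 or 7 was left out. Of 13 tested regulators 5 were higher, led by Akap5 (1.66), Map2 (1.14) and Pex5l (0.99), 1 was lower (Kcne4, -3.27) and 7 were not called. The Kcne4 call was lost with wells of 20000 UMIs and in 5 of 9 leave-outs of 1 library, and that of Pex5l without glial or without connective tissue wells. Of 19 tested resting conductances and pumps 4 were higher, among them Fam155a (2.51) and Atp1b1 (1.05), 2 were lower (Kcnj3, -1.10, and Atp1b3, -0.55) and 13 were not called. Leaving out 1 library ended the Kcnj3 call in 6 of 9 cases and that of Atp1b3 in 4 of 9, and leaving out connective tissue wells ended that of Atp1b1 (0.51, edgeR adjusted p = 0.060).

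**Figure D4:**
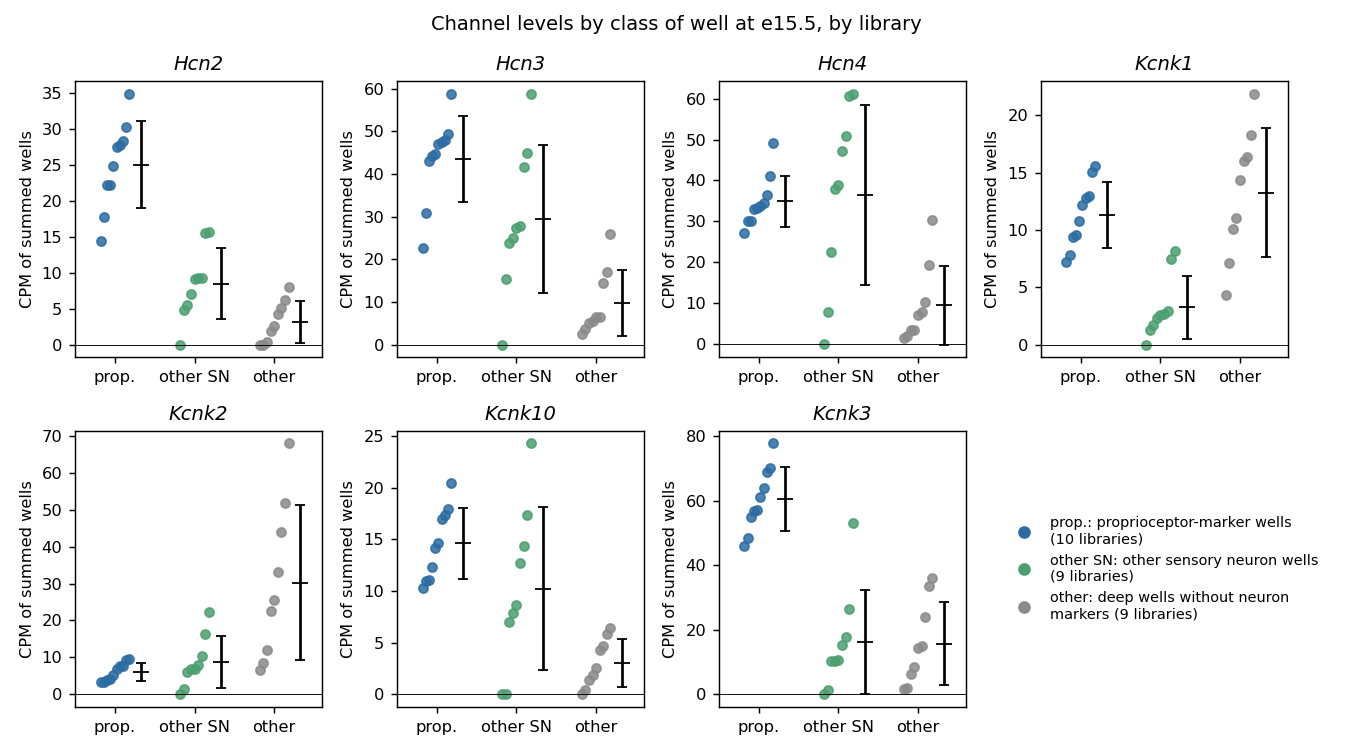
Level in CPM of the 7 detected members in proprioceptor-marker wells, other sensory neuron wells and other deep wells at e15.5; points are libraries with at least 5 wells of the class and bars are mean with SD, on linear axes scaled for each gene. Kcnk2 is highest in the other deep wells (30.2 ± 21.0 CPM), whereas Kcnk3 is highest in proprioceptor-marker wells (46.0 to 77.9 CPM).

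The study read Tox as a marker of proprioceptors of back muscles and Gabrg1 as one of hindlimb muscles, and wells were classed here by those transcripts alone (at least 2 UMIs and 50 CPM of one, above the other). At e15.5 only libraries 8 and 9 held 5 wells of each class, 22 Gabrg1 and 29 Tox wells in all, so that the fit left 1 residual degree of freedom. It called 6.11% of 11082 genes, 3.08% higher and 3.03% lower in Gabrg1 wells, and 1 of 6 tested members, Hcn4.

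Hcn4 was at 36.8 and 30.8 CPM in the Tox wells of libraries 8 and 9 and at 85.7 and 56.6 CPM in their Gabrg1 wells. It was higher in both libraries, without overlap, by 1.06 (SE 0.227, 95% interval 0.61 to 1.5, edgeR quasi-likelihood adjusted p = 0.0019). The call was lost with DESeq2 (1.06, adjusted p = 0.77) and when wells were classed from 1 UMI and 25 CPM (0.78, edgeR adjusted p = 0.059). Kcnk3 was at 49.1 and 70.6 CPM in Tox wells and 55.9 and 120 CPM in Gabrg1 wells, at 0.54 (edgeR adjusted p = 0.12), and it was called with the wider classes (0.78, edgeR adjusted p = 0.0040). Hcn2 (-0.28), Hcn3 (0.25), Kcnk1 (0.00) and Kcnk10 (-0.00) were not called. Kcnk2 had 15 UMIs in Tox and 3 in Gabrg1 wells and was not tested.

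None of the 11 tested regulators was called. Of 16 tested resting conductances and pumps 2 were higher in Gabrg1 wells, 3 lower and 11 not called; Atp1b1 was at 0.47, Kcnq5 at -1.89 and Atp1b2 at -1.81. All 3 calls were lost with DESeq2, without the library block and with the wider classes.

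At p1 the same classes gave no called member in libraries 1, 4 and 5, with 23 Gabrg1 and 71 Tox wells. edgeR's quasi-likelihood test called 0.00979% of 10216 genes, which is 1 gene, Tox itself, used for the classes. Gabrg1, also used for them, was not called, so the lack of a call for other genes says little here. In Gabrg1 wells 0.0% were higher and 0.00979% lower. An unadjusted p under 0.05 was seen for 437 genes, and DESeq2 called 23. Hcn4 was at 59.4, 56.2 and 59.2 CPM in Tox wells and 52.2, 62.0 and 43.6 CPM in Gabrg1 wells, which overlapped, with a log2 difference of -0.06. Kcnk10 was at 12.4, 12.8 and 8.77 CPM in Tox wells and 17.4, 35.1 and 37.4 CPM in Gabrg1 wells. It was higher in 3 of 3 libraries, by 1.42 (SE 0.413, edgeR unadjusted p = 0.0064, adjusted p = 0.71). The other members were at 0.05 (Hcn2), 0.18 (Hcn3), 0.06 (Kcnk1), -0.56 (Kcnk2) and -0.32 (Kcnk3).

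Whether the class difference itself changed with age was tested as an interaction, which called 0.0167% of 12003 genes (0.0% higher and 0.0167% lower) and 0 of 7 members. Hcn4 was at -1.13 (edgeR unadjusted p = 0.0079, adjusted p = 0.56), Kcnk10 at 1.42 (0.034, adjusted p = 0.84) and Kcnk3 at -0.84 (0.039, adjusted p = 0.87). Without wells with glial transcripts, on 3 libraries, Kcnk10 was at 2.47 and Kcnk3 at -1.29, with too few libraries at p1 to give a spread. The Hcn4 difference seen at e15.5 was thus not shown to differ from that at p1.

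**Figure D5:**
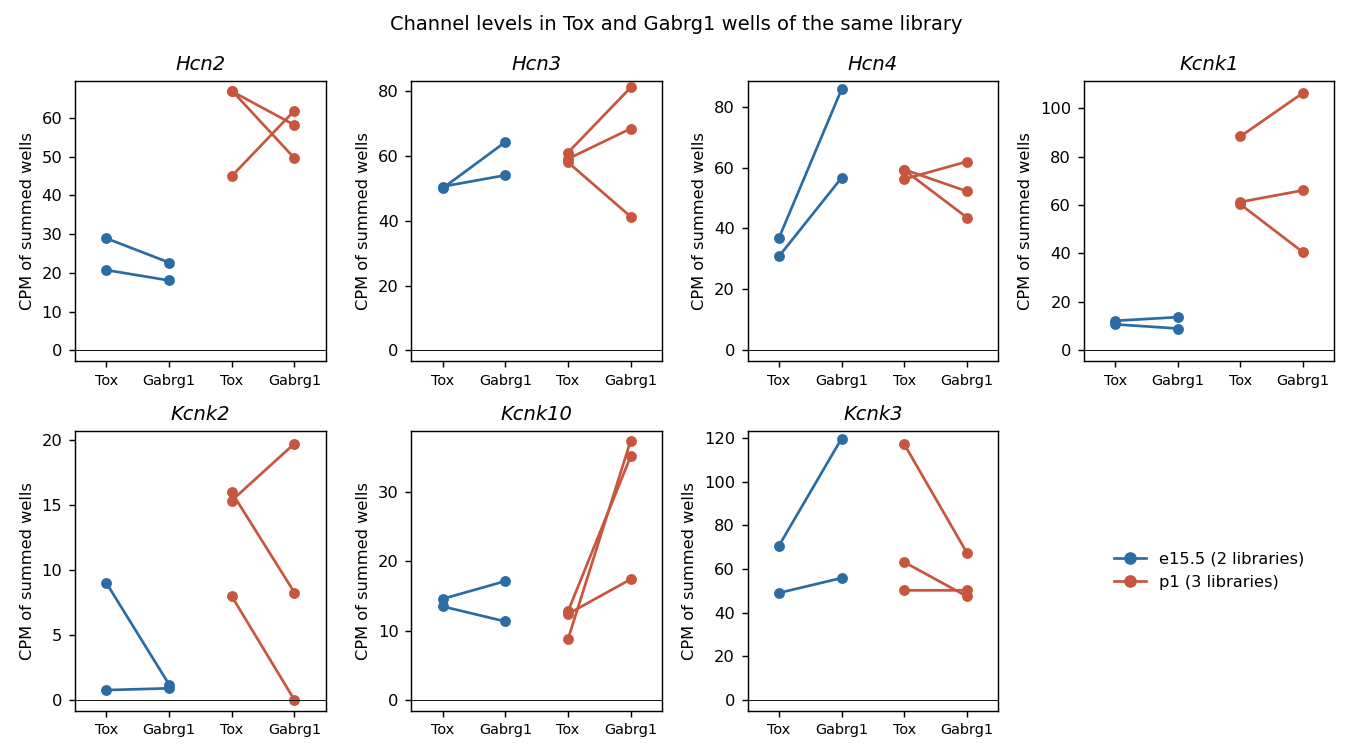
Level in CPM of 7 members in Tox and Gabrg1 wells of the same library, joined by a line for each library (e15.5 libraries 8 and 9 in blue, p1 libraries 1, 4 and 5 in red), on linear axes scaled for each gene. The e15.5 lines of Hcn4 rise from 36.8 to 85.7 and from 30.8 to 56.6 CPM, the p1 lines of Hcn4 do not share a direction, and all 3 p1 lines of Kcnk10 rise.

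Across the wells of a library, the highest correlations among members at e15.5 were those of Hcn3. The median Pearson r over 10 libraries was 0.332 for Hcn3 with Hcn4, 0.324 for Hcn2 with Hcn3 and 0.237 for Hcn3 with Kcnk3, but 0.103 for Hcn2 with Hcn4, and the lowest pair was Kcnk3 with Kcnk10 at -0.0751. At p1 the highest pairs held Kcnk1, which went with Kcnk3 (0.242) and with Hcn2 (0.181), and the lowest was Hcn3 with Kcnk2 (-0.127). Wells of a library share its depth and mix of classes, so these values are descriptions.

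Among 11939 genes at e15.5, the pattern most like Hcn2 over wells was that of Nrxn2 (median r 0.488), then Acsl4 (0.481). Hcn3 was most like B4galt5 (0.552) and Syp (0.541), and Hcn4 most like the predicted genes Gm26871 (0.610), Gm37928 (0.561) and Gm44433 (0.560). Kcnk1 went with Dnm1 (0.347), Kcnk3 with Prss12 (0.388) and Kcnk10 with Cntnap5a (0.453). At p1, over 10855 genes, Kcnk1 was most like Ndufs4 (0.453), Wipf3 (0.438) and Atp5h (0.425), and Kcnk3 most like Ndufb5 (0.430), Calm2 (0.425) and S100a10 (0.417). Hcn2 went with Gars (0.474), Hcn3 with Tubb4b (0.362), Hcn4 with Mrps28 (0.309), Kcnk2 with Ddr1 (0.293) and Kcnk10 with Gm14480 (0.339). These genes were picked as the highest of all compared, and r varied between libraries. For Hcn2 with Gars it ran from -0.675 to 0.559 over 6 p1 libraries, and for Hcn3 with Tubb4b from 0.153 to 0.490.

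The genes lie apart in the genome (GRCm38, GENCODE M21). Hcn2 (ENSMUSG00000020331) is at chr10:79716634-79736108 on the plus strand, Hcn3 (ENSMUSG00000028051) at chr3:89146074-89160196 on the minus strand and Hcn4 (ENSMUSG00000032338) at chr9:58823412-58863175 on the plus strand. Kcnk1 (ENSMUSG00000033998) is at chr8:125995170-126030685, plus, Kcnk3 (ENSMUSG00000049265) at chr5:30588170-30625271, plus, and Kcnk18 (ENSMUSG00000040901) at chr19:59219214-59237374, plus. Kcnk2 (ENSMUSG00000037624) is at chr1:189207930-189402273, Kcnk9 (ENSMUSG00000036760) at chr15:72501089-72546340 and Kcnk10 (ENSMUSG00000033854) at chr12:98429437-98578310, all on the minus strand. Counts were per whole gene. Hcn3 is overlapped on the other strand by Pklr (0.197 CPM at e15.5 and 0.215 at p1) and Kcnk3 by Gm9899 (2.45 and 1.51 CPM), and whether counting used the strand was not given in the sources used here.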

How the data were processed

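The authors aligned and counted CEL-Seq2 reads with scruff and deposited raw UMI counts per gene and well, without normalisation, 1 table per age; the builds GRCm38 and mm10 are in the submitters' processing notes. Neither counting parameters nor use of the strand are stated, and per-library lines, segmental levels and animals were not analysed here. Gene IDs were named from GENCODE M21, which paired 49326 of 49671 with a symbol. Columns were assigned to libraries by their names.

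Counts were summed per library over wells with at least 10000 UMIs and 100 CPM of Avil plus Isl1, and over classes of these wells with at least 5 wells per sum. Sums were tested with edgeR's quasi-likelihood F test (TMM, filterByExpr), with Benjamini-Hochberg adjustment over all tested genes and a threshold of 0.05. Comparisons within libraries had the library as a block, because both classes came from 1 preparation; the correlation of same-library deviations ran from -0.0488 to 0.421 (median 0.141) and from 0.0279 to 0.652 (median 0.200). Age was tested without a block. Shares of wells used 1 seeded thinning to 10000 UMIs. Likeness was the median over libraries of Pearson's r across wells, over genes seen in 30% of wells.

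Named were the 9 channels in every comparison, the other HCN and K2P genes, and of each further list the 3 called genes with the largest change per direction; some of these genes are not reported here. The members and lists were chosen with earlier results of these data known. Alternatives were DESeq2, RLE factors, no filter on low counts, other thresholds for wells, leaving out wells with glial transcripts or each library, and, added after seeing the data, library sizes alone, leaving out the 2 deepest e15.5 libraries or wells with connective tissue transcripts, and proprioceptor-marker wells without glial transcripts.

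Sums held 238549 to 9022334 UMIs; at equal depth a share of 0 in 434 wells allows up to 0.691%. Intervals and floors of 3 counts cover counting error only. No 2 libraries agreed within sampling noise (lowest chi-square per degree of freedom 3.26 and 3.75). All libraries share the same 96 well numbers, which are plate positions. Doublets were not called, and 86 e15.5 and 88 p1 selected wells had at least 300 CPM of glial genes. The fits were tested on simulated data with known changes. Software was R 4.3.3, edgeR 4.0.16, limma 3.58.1, DESeq2 1.42.0, Python 3.11.15, NumPy 2.4.6, pandas 2.3.3, SciPy 1.17.1 and Matplotlib 3.10.9.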

Additional observations from a re-analysis of the deposited data

Results flagged for a closer look

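Over the 17 groups of library levels examined, 1 value stood apart from the rest of its group: Kcnk9 in p1 library 2, at 0.141 CPM, where the other p1 libraries were at 0. It was 1 UMI, under the floor of 3 counts. Chance sets about 1 in 20 groups apart in this way.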

How the results depend on the processing

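Between ages, Kcnk1, Hcn2, Hcn3 and Hcn4 were called higher at p1 in all 16 other settings and whichever library was left out; the calls lost for Kcnk3 and Kcnk10 stand with their values in the report. The replicate numbers of the ages share only a number: over 2000 genes, 6 same-numbered pairs had r of -0.244 to 0.306 (2 over 0.1, and 1 of 6 correlated best with its own number). With a replicate block 7137 genes were called, against 7287 without it in the same 12 libraries and 8584 in all, and Kcnk2 was at 1.09 (edgeR adjusted p = 0.0504). With wells thinned to 10000 UMIs 4588 genes were called.

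For Gabrg1 against Tox wells, DESeq2 called 110 genes at e15.5, 23 at p1 and 26 in the interaction; the fit with no replicate block called 324 at e15.5 and 2 at p1, no filter on low counts 99 at p1 and 163 in the interaction, and wells classed from 1 UMI and 25 CPM 84 at p1. The interaction without glial wells called 538 on 3 libraries, with 1 at p1, whose spread is assumed to be that at e15.5. Leaving out 1 library gave 0 to 121 genes at p1 and 0 to 46 in the interaction.

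Values that changed sign were never called in either setting. In proprioceptor-marker wells Hcn4 became 0.013 with no filter, 0.0079 with DESeq2, 0.16 without glial wells and -0.21 to 0.10 with 1 library left out, and Kcnk10 became -0.25 without connective tissue wells. At e15.5 in Gabrg1 wells Kcnk1 became -0.020 (DESeq2), -0.013 (20000 UMIs), -0.31 (no glial wells) and -0.0051 (library sizes), and Kcnk10 0.00086 (RLE) and 0.0039 (DESeq2). At p1 Hcn2 became -0.028 (no filter), -0.20 (1 UMI and 25 CPM), -0.052 (library sizes) and -0.20 to 0.23 with 1 library left out; Kcnk1 became -0.029 (no filter), -0.048 (library sizes) and -0.12 to 0.30; Kcnk2 became 0.023 (1 UMI and 25 CPM); Hcn3 ran from -0.0056 to 0.42 and Hcn4 from -0.21 to 0.079. In the interaction Kcnk1 became -0.015 (no filter), -0.037 (library sizes) and -0.14 to 0.27 with 1 library left out, Hcn3 ran from -0.25 to 0.16 and Kcnk2 from -0.82 to 2.24. The causes were not tested. Gabrg1 wells without glial transcripts at p1 could not be fitted, and leaving out a library at e15.5 leaves 1.

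Limits: age cannot be told apart from mouse line, and the Gabrg1 comparisons rest on 2 libraries at e15.5 and 3 at p1. Levels of Kcnk9 and Kcnk18 lie at the limit of depth.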
